A study of Danio rerio with 6 samples.

Results

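The protocadherins are a family of cell adhesion proteins within the cadherin superfamily, and their transcripts were measured here in zebrafish larvae. Of the 24470 gene IDs in the deposited table, 56 carried a symbol beginning with pcdh other than pcdh15a, a hair cell gene kept apart. By name, 34 belonged to the tandem gene clusters (symbols starting pcdh1g, pcdh2a or pcdh2g) and 22 were taken as non-clustered. Of these 22, pcdh1a3, pcdh1a4 and pcdh1a6 carry the names of alpha genes of cluster 1, and pcdhb has the name of a beta-type gene, so counts for the other 18 are also given. The members were taken by symbol and not by their own values, though the list was chosen with earlier results of these data known.

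Messenger RNA was sequenced from larvae of the transgenic line Tg(Brn3C:mGFP), which both groups shared and whose hair cells carry green fluorescent protein on their membranes. The treated group held 3 libraries of larvae given 2.5 µM 4-octyl itaconate, a cell-permeable itaconate ester, for 48 h from 3 days post fertilization. The control group held 3 libraries, and all larvae were collected at 5 days. The sources used here give neither a vehicle for the controls nor how many larvae or clutches went into a library. The p-values therefore measure only how these samples vary, and that variation may be technical.

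Clustered protocadherins are built from a large variable exon, which encodes the extracellular cadherin repeats and the membrane span, spliced to small constant exons shared by a whole cluster. In mouse, each neuron uses its own few variable exons, and the resulting surface code lets the branches of 1 neuron recognize and avoid each other. Most non-clustered members belong to the delta group, single genes that guide cell sorting, axon growth and synapse formation and that in part recruit the actin-nucleating WAVE complex. In zebrafish, cluster 1 alpha proteins are needed for the survival of neurons, and pcdh19 organizes columns of neurons in the optic tectum.

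Most protocadherins were less abundant in treated larvae. Of 56 members, 48 reached a mean of 10 normalized counts over the 6 libraries and were tested. Their change was measured with limma on log2(normalized count + 1), and a change was called at a Benjamini-Hochberg adjusted p under 0.05 over all 20352 genes tested. By that test 32 protocadherins fell, 2 rose and 14 did not pass. Of all genes tested 69.3% were called, 34.3% lower and 35.0% higher. The median log2 fold change, treated minus control, was -1.81 over the tested protocadherins and 0.01 over all genes. A called fall of 1 or more on the log2 scale was found in 30 of the 48, against 27.0% of all genes, and one of 3 or more in 16, against 5.35% of all genes. In 32 of 48 members all treated libraries lay below all control libraries, and in 2 all lay above, against 36.8% and 37.4% of all genes (74.1% in either direction). Treated replicate 1 stood apart from the other treated libraries in several members, and values without it are given where they end a call or move the fold of a called member by over 1.5 times, and for some others. Without it 32 members fell, 31 of them among the 32, and 2 rose, against 36.8% and 36.7% of all genes. Recovered reads per library ranged from 14763897 to 23507208. Libraries correlated across genes at 0.928 to 0.972 (Pearson, log2 values) among treated, at 0.971 to 0.974 among control and at 0.672 to 0.731 between the groups.

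**Figure D1:**
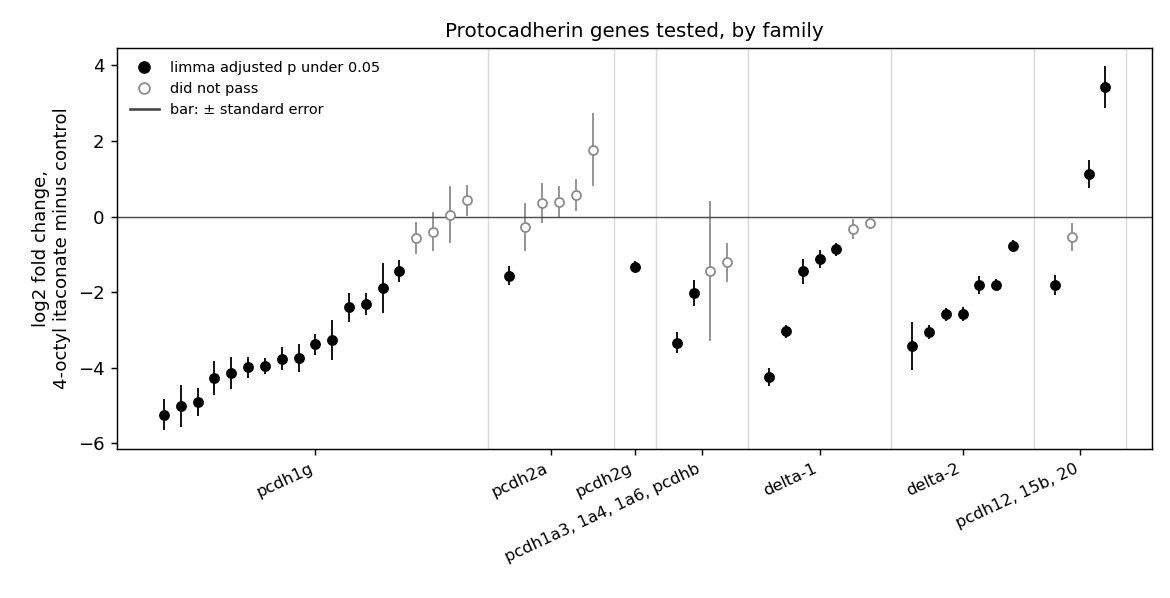
Log2 fold changes (vertical axis, 4-octyl itaconate minus control, log2(normalized count + 1) scale) of the 48 protocadherins tested, grouped by family along the horizontal axis, with bars of ± 1 standard error. Filled points passed a limma adjusted p of 0.05 (32 below 0, 2 above 0) and open points did not (14).

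Neuron markers fell beside the protocadherins. Of 30 tested markers of neurons, 26 fell and 4 did not pass, with a median log2 fold change of -3.02, and of 17 markers of glia 10 fell and 3 rose, with a median of -0.91. Summed neuron markers lay between 17553 and 27844 normalized counts in treated libraries and between 178426 and 191273 in control libraries. Only syt1b of that list was at 0 throughout a group, the controls. Markers of skeletal muscle (24 of 26), liver (19 of 20), skin (19 of 20), pancreas and intestine (24 of 24) and blood (13 of 16, with 1 lower) rose in the same larvae, and of 18 hair cell markers 8 rose and 4 fell. Beside these counts, 34.3% of all genes tested fell and 35.0% rose, 69.3% in either direction. Of all normalized counts, skeletal muscle markers took 16.0 percent in treated and 2.22 percent in control libraries, by group means. Liver markers took 2.44 and 0.0682 percent, pancreas and intestine markers 1.54 and 0.0261 percent, and neuron markers 0.108 and 0.917 percent. RNA of larvae was sequenced in bulk. Fewer cells of a type, less RNA per cell and unlike tissue content of the libraries therefore cannot be told apart. The part of these shifts in the protocadherin results was not tested.

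Summed over all their members, clustered protocadherins took 0.021, 0.0182 and 0.0122 percent of all normalized counts in treated replicates 1, 2 and 3, against 0.131, 0.152 and 0.118 percent in control replicates 1, 2 and 3. Non-clustered members took 0.0208, 0.0235 and 0.0187 percent in treated replicates and 0.099, 0.105 and 0.0902 percent in control replicates. For both sums, every treated library lay below every control library. By group means, the clustered share was 7.81-fold and the non-clustered share 4.68-fold lower in treated larvae. Set against the summed neuron markers of the same library, the clustered sum came to a ratio of 0.196, 0.132 and 0.155 in treated and 0.145, 0.156 and 0.135 in control replicates, ranges that overlap. The families within it gave unlike ratios: the pcdh1g ratio was 0.116, 0.0629 and 0.071 in treated and 0.123, 0.128 and 0.115 in control replicates, 1.46-fold lower by group means and 1.82-fold lower without treated replicate 1. The pcdh2a ratio was 0.0277, 0.0188 and 0.02 in treated and 0.00546, 0.00739 and 0.00532 in control replicates, and that of pcdh2g28 was 0.0521, 0.0507 and 0.0644 in treated and 0.0169, 0.0204 and 0.0149 in control replicates. Both cluster 2 ratios were higher in every treated library, and the pcdh1g ratio overlapped in treated replicate 1 alone. Most of the pcdh2a sum came from pcdh2ab9 (ENSDARG00000101318). It held 490, 321 and 243 of 658, 524 and 351 normalized counts in treated replicates. In control replicates it held 935, 1187 and 891 of 1044, 1319 and 970. The non-clustered sum came to 0.194, 0.171 and 0.239 in treated and 0.109, 0.108 and 0.103 in control replicates, where every treated library was higher. These sums are descriptions over a chosen list and carry no test.

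**Figure D2:**
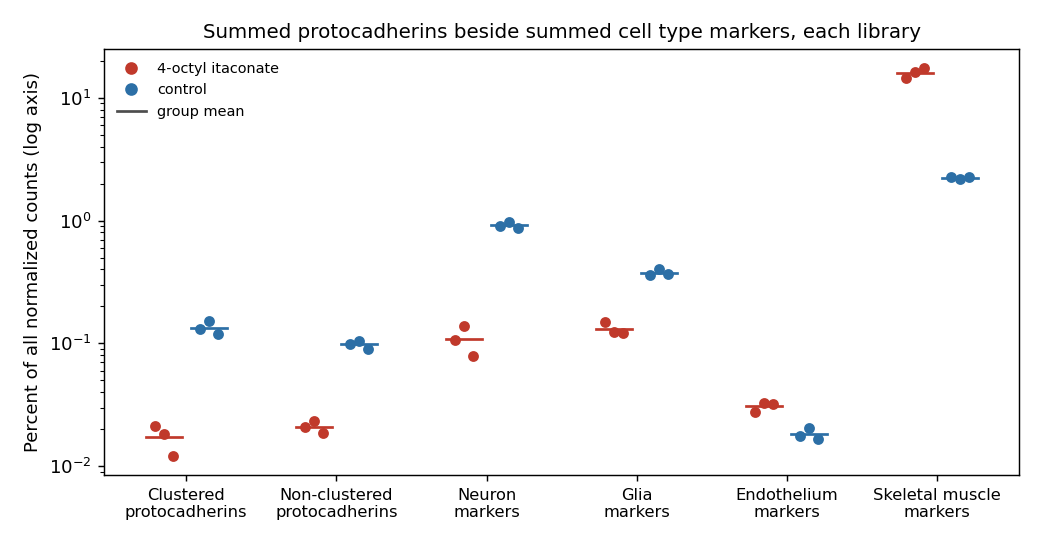
Percent of all normalized counts (vertical log axis) taken by clustered and non-clustered protocadherins and by 4 lists of cell type markers, with 1 point per library and a line at the group mean. Both protocadherin sums, neuron markers and glia markers lie lower in 4-octyl itaconate libraries, and endothelium and skeletal muscle markers lie higher.

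Cluster 1 gamma genes, whose symbols begin with pcdh1g, held the deepest falls. All 19 were tested, 15 fell and 4 did not pass, with a median log2 fold change of -3.37. Their summed level was 2759, 1751 and 1247 normalized counts in treated replicates and 23489.7, 22901 and 20943 in control replicates, 11.7-fold lower in treated larvae. Treated replicate 1 held the most, and without it the sum was 15-fold lower. Without that library 14 of the 19 fell, against 36.8% of all genes. All 14 were among the 15, and the median over the 19 was -3.97. The fold by which treated larvae were lower moved by over 1.5 times in 3 gamma genes besides those described next, to 19.03, 46.8 and 15.7 without that library for pcdh1g22, pcdh1g32 and pcdh1g33, against 12, 27.5 and 7.61 with it. With each of the 6 libraries left out in turn, 16 or 17 clustered members were called lower.

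The C-type genes pcdh1gc5 and pcdh1gc6 carry the names of a class that mouse neurons use without the random choice of the other variable exons. Reads for pcdh1gc5 came to 415, 199 and 178 normalized counts in treated replicates 1, 2 and 3 and 3215, 3047 and 3728 in control replicates (log2 fold change -3.75 with SE 0.29, adjusted p = 8.39e-06 in limma). For pcdh1gc6 the treated replicates had 396, 174 and 94.5 and the control replicates 3268, 3754 and 3001 normalized counts (log2 fold change -4.15 with SE 0.43, adjusted p = 3.79e-05 in limma). Both were lower in every treated library, 12.6-fold and 15.1-fold by the group means, and both were highest in treated replicate 1 among the treated. Without that replicate their log2 fold changes were -4.13 and -4.68, and pcdh1gc6 was 24.9-fold lower.

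The other gamma genes with the smallest p, chosen by rule, were pcdh1g29, pcdh1g9 and pcdh1g30. Normalized counts of pcdh1g29 were 176, 118 and 120.3 in treated and 1729, 2549 and 2192 in control replicates (log2 fold change -3.96 with SE 0.21, adjusted p = 1.9e-06 in limma). Those of pcdh1g9 were 169, 60.7 and 57.3 in treated and 2629, 2606 and 2393 in control replicates (log2 fold change -4.90 with SE 0.37, adjusted p = 6.79e-06 in limma). Those of pcdh1g30 were 191, 159.7 and 84 in treated and 2199, 2240.0 and 2121 in control replicates (log2 fold change -3.99 with SE 0.28, adjusted p = 4.73e-06 in limma). In each of these genes the lowest control library was several times the highest treated one, and the levels were 15.6-fold, 26.6-fold and 15.1-fold lower in treated larvae by group means. For pcdh1g9 treated replicate 1 was the highest of the treated, and without it the level was 43.1-fold lower in treated larvae (log2 fold change -5.40).

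Some gamma genes stood apart from that pattern, and the ones named next were chosen once their values had been seen. The gene pcdh1g11, listed as a polymorphic pseudogene, had the lowest log2 fold change of all members, with 30.3, 12.4 and 22.9 normalized counts in treated and 1006, 467 and 1149 in control replicates (log2 fold change -5.24 with SE 0.41, adjusted p = 8.54e-06 in limma). At the other end, the b-type genes pcdh1gb2 and pcdh1gb9, together with pcdh1g13 and pcdh1g14, did not pass. For pcdh1gb9 the values were 44.8, 37.1 and 27.7 in treated and 25.1, 43.3 and 16.9 in control replicates (log2 fold change 0.43 with SE 0.42, adjusted p = 0.383 in limma), and for pcdh1gb2 they were 22.4, 24.7 and 30.5 in treated and 32.1, 70.0 and 25.4 in control replicates (log2 fold change -0.57 with SE 0.43, adjusted p = 0.258 in limma). The groups overlapped in all 4, whose means were 21.1 to 36.5 normalized counts in treated and 19.5 to 42.5 in control larvae. The 15 that fell had means of 20.2 to 264 in treated and 222 to 3341 in control larvae. With standard errors of 0.42 to 0.76, small changes in these 4 were not detectable at this depth.

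The call of 1 gamma gene depended on single libraries. Reads of pcdh1g1 were 19.1, 70.9 and 88.8 normalized counts in treated and 297, 297 and 73.3 in control replicates (log2 fold change -1.89 with SE 0.67, adjusted p = 0.032 in limma), and control replicate 3 lay below treated replicate 3. Its adjusted p was 0.0576 without treated replicate 1, 0.116 without control replicate 1 and 0.121 without control replicate 2. Upper-quartile scaling gave 0.0564 and limma without its intensity trend 0.0638, in a range of 0.0024 to 0.121 over 19 alternatives.

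Cluster 1 was then read in order. The RefSeq annotation of assembly GRCz12tu, another build than the GRCz11 of these data, was used only for names and neighbours, and 45 of the 56 members matched it. There 14 of 15 matched pcdh1g models share one gene boundary, and so do 10 of 10 matched pcdh2a models. The sources used here do not say how reads from the constant exons were divided among members, so values of single cluster members are uncertain. Along the cluster, the neighbours pcdh1g1, pcdh1g2 and pcdh1g3, which follow the alpha genes, had log2 fold changes of -1.89, -1.44 and -2.30. The run pcdh1gc5, pcdh1gc6, pcdh1g29, pcdh1g30, pcdh1g31 and pcdh1g32 at the other end had -3.75, -4.15, -3.96, -3.99, -4.26 and -5.01. Between these runs lay pcdh1gb2 (-0.57) and pcdh1gb9 (0.43), which did not pass, and pcdh1g9 (-4.90), pcdh1g11 (-5.24), pcdh1g18 (-3.37) and pcdh1g26 (-2.39), which fell. Absent from this order, for lack of a RefSeq match, were pcdh1g13 (-0.40) and pcdh1g14 (0.05), which did not pass. Also absent were pcdh1g22 (-3.74), pcdh1g33 (-3.27) and pcdh1a6 (-3.34), which fell.

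Alpha genes of cluster 1 were measured as pcdh1a3, pcdh1a4 and pcdh1a6. The alpha gene pcdh1a6 had 174, 343 and 175 normalized counts in treated and 2505, 1726 and 2520.3 in control replicates, 9.76-fold lower in treated larvae (log2 fold change -3.34 with SE 0.28, adjusted p = 1.27e-05 in limma). The gene pcdh1a4 had 146, 171 and 134 in treated and 651, 1003 and 351 in control replicates (log2 fold change -2.03 with SE 0.34, adjusted p = 0.000683 in limma). Both were lower in every treated library than in any control library. For pcdh1a3 the treated replicates held 28, 4.5 and 3.82 and the control replicates 0, 407 and 36.6 normalized counts. Control libraries alone spanned a count of 0 to the highest value of the gene, and the change did not pass (log2 fold change -1.44 with SE 1.84, adjusted p = 0.503 in limma). Without control replicate 1 its log2 fold change was -3.76 (limma adjusted p = 0.0218), and without control replicate 2 it was 0.58 (limma adjusted p = 0.760), the ends of the range over 19 alternatives.

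**Figure D3:**
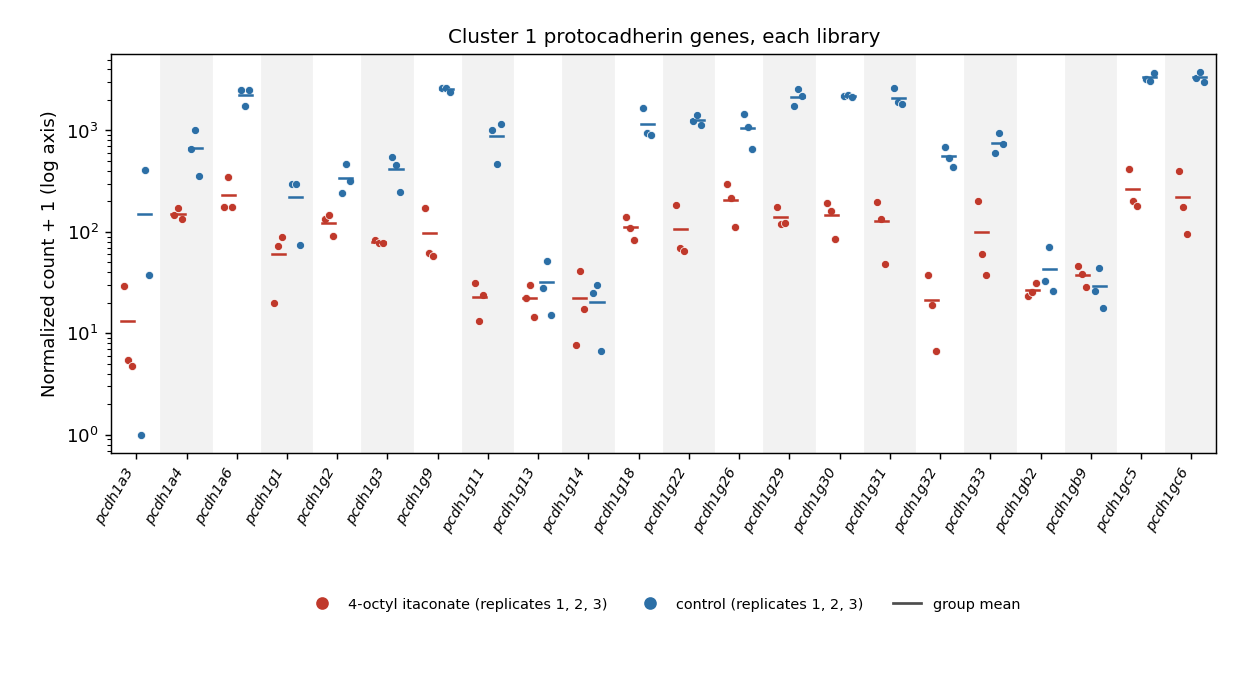
Normalized count + 1 (vertical log axis) of the 22 alpha and gamma genes of cluster 1, with 1 point per library, replicates 1 to 3 from left to right in each group, and a line at the group mean. The 15 gamma genes that fell average 20.2 to 264 normalized counts in treated larvae and 222 to 3341 in control larvae, while pcdh1g13, pcdh1g14, pcdh1gb2 and pcdh1gb9 average 21.1 to 36.5 in treated and 19.5 to 42.5 in control larvae.

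Most cluster 2 genes were near the filter on low values. Of 14 members named pcdh2a (with pcdh2aa, pcdh2ab and pcdh2ac), only 6 passed the filter on low values. Of these, 1 fell and 5 did not pass, beside 34.3% of all genes tested that fell. The one that fell was 1 of 2 gene IDs named pcdh2ab9, ENSDARG00000101318, with 489.9, 321 and 243 normalized counts in treated and 935, 1187 and 891 in control replicates (log2 fold change -1.56 with SE 0.25, adjusted p = 0.000567 in limma). The other, ENSDARG00000089874, which RefSeq names pcdh2aa3 by its Entrez number, had 23.5, 22.5 and 24.8 in treated and 21.1, 11.1 and 24 in control replicates and did not pass (log2 fold change 0.39 with SE 0.41, adjusted p = 0.421 in limma). Their shared symbol thus covered a gene that was lower in every treated library and one whose libraries overlapped.

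Among the other pcdh2a members with the smallest p, pcdh2ab12 had 20.2, 20.2 and 10.5 normalized counts in treated and 14, 7.78 and 0 in control replicates (log2 fold change 1.76 with SE 0.96, adjusted p = 0.13 in limma). In pcdh2ab10 the treated replicates had 16.8, 30.4 and 22.9 and the control replicates 11, 15.6 and 19.7 (log2 fold change 0.56 with SE 0.42, adjusted p = 0.258 in limma). Neither passed, and in both the libraries of the groups overlapped. The 8 members under the filter had single-library values of 0 to 31.5 normalized counts in treated and 0 to 30.0 in control larvae. Of these 8, pcdh2ab11 and pcdh2ac were at 0 in all control libraries, where 3 reads over the group correspond to a mean of 1.17 normalized counts, a floor that covers counting error only. In treated replicates pcdh2ab11 was listed at 0, 14.6 and 11.5, and pcdh2ac at 0, 22.5 and 0. With no filter on low values, a gene ID named pcdh2ab2 (ENSDARG00000099468) was called higher, at 4.48, 31.5 and 3.82 in treated and 0, 0 and 1.41 in control replicates (log2 fold change 2.83, limma adjusted p = 0.0164).

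The single cluster 2 gamma gene listed, pcdh2g28, which RefSeq names pcdh2g29 by its Entrez number, was lower in treated larvae. It had 1238, 1412 and 1131 normalized counts in treated and 3237, 3634 and 2716 in control replicates, 2.54-fold lower (log2 fold change -1.34 with SE 0.16, adjusted p = 8.33e-05 in limma). Every treated library lay below every control library. The gene pcdhb, beta-type by name only, had no RefSeq match to place it in a cluster. It had 31.4, 18 and 9.55 normalized counts in treated and 29.1, 70.0 and 36.6 in control replicates, with overlap. The change did not pass (log2 fold change -1.21 with SE 0.51, adjusted p = 0.0602 in limma). Without treated replicate 1 it did (log2 fold change -1.61, limma adjusted p = 0.0132), as it did after quantile normalization and with arrayWeights, and its adjusted p in limma, edgeR and DESeq2 ranged from 0.00964 to 0.212 over 18 alternatives.

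Over all clustered members, 17 of 26 tested fell, and limma called 0 as higher, beside 34.3% and 35.0% of all genes tested. At an unadjusted p under 0.05 limma also gave 0 higher. At an adjusted p under 0.05, edgeR and DESeq2 on reads recovered from the deposited values called 0 higher as well. Both of those tools called the same 17 as lower. The median log2 fold change was -2.10 over clustered members tested, and -1.63 over non-clustered members. With a filter at a mean of 50 normalized counts, the medians were -3.74 over clustered and -1.80 over non-clustered members. That filter left 17 clustered members, all 17 called lower, and 21 non-clustered members, of which 15 were called lower. Some clustered members reached that mean only through the control libraries, as did pcdh1g11, averaging 21.8 in treated and 874 in control larvae. The deeper clustered median is thus that of the members called lower alone. The difference between the lists was not tested.

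Among the 22 non-clustered members, all tested, 15 fell, 2 rose and 5 did not pass. The counts of this paragraph stand beside 34.3% of all genes tested that fell and 35.0% that rose. Leaving out the 4 with cluster-type names, 13 of 18 fell, 2 rose and 3 did not pass. The delta-2 genes pcdh8, pcdh10a, pcdh10b, pcdh17, pcdh18a, pcdh18b and pcdh19 all fell, 7 of 7, with log2 fold changes of -3.42 to -0.78. Of the 7 gene IDs of delta-1 genes (pcdh1a, pcdh1b, pcdh7a, pcdh7b, pcdh9 and 2 IDs of pcdh11), 5 fell and 2 did not pass.

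**Figure D4:**
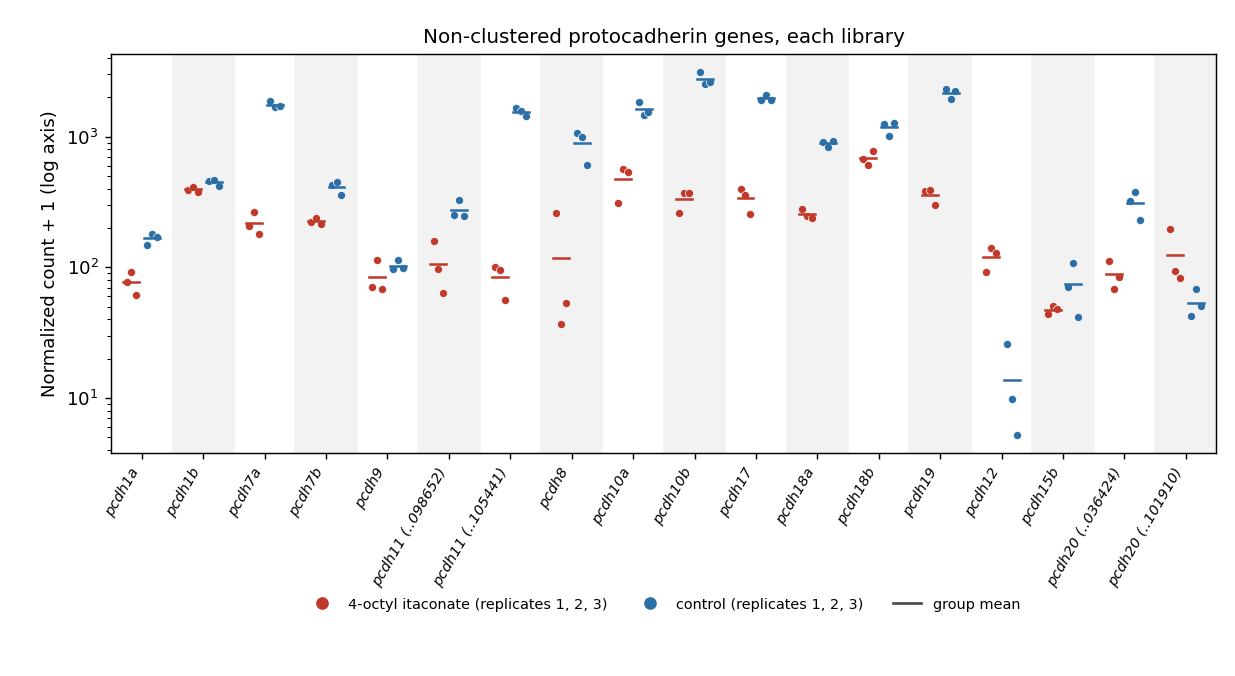
Normalized count + 1 (vertical log axis) of the 18 non-clustered protocadherin gene IDs that carry no cluster-type name, with 1 point per library, replicates 1 to 3 from left to right in each group, and a line at the group mean. Treated libraries lie below all control libraries in 14 of the 18 and above them in pcdh12 and in 1 of the pcdh20 IDs. Over all genes tested these shares are 36.8% below and 37.4% above.

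Several delta-2 protocadherins bind the WAVE complex through a cytoplasmic motif. Reads of pcdh10b, a zebrafish counterpart of the mammalian axon growth gene PCDH10, came to 260.1, 369 and 367 normalized counts in treated and 3108, 2521 and 2602 in control replicates (log2 fold change -3.05 with SE 0.18, adjusted p = 2.4e-06 in limma). For its paralog pcdh10a they came to 311, 566 and 532 in treated and 1838, 1454 and 1545 in control replicates (log2 fold change -1.82 with SE 0.23, adjusted p = 0.000142 in limma). Treated replicate 1 was the lowest of the treated libraries for both genes, whereas it was the highest for pcdh1gc5 and pcdh1gc6. Means were 8.26-fold lower for pcdh10b and 3.44-fold lower for pcdh10a.

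Genes of synapses and circuits in the delta-2 group fell as well. The gene pcdh17, which in mouse takes part in assembling presynaptic terminals, had 393, 357 and 257 normalized counts in treated and 1920.0, 2067 and 1917 in control replicates (log2 fold change -2.57 with SE 0.18, adjusted p = 5e-06 in limma). The gene pcdh19, whose human counterpart is mutated in a female-limited epilepsy, had 386, 393 and 299 in treated and 2299, 1938 and 2228 in control replicates (log2 fold change -2.59 with SE 0.16, adjusted p = 2.91e-06 in limma). Both were lower in all treated libraries, 5.86-fold and 6.0-fold, and the spread within each group was small beside that gap.

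The pcdh18 paralogs differed in size. For pcdh18a, active in the axial mesoderm of the zebrafish embryo, treated replicates had 278, 246 and 237 and control replicates 910.4, 824 and 926 normalized counts (log2 fold change -1.80 with SE 0.15, adjusted p = 1.11e-05 in limma). For pcdh18b, which supports motor axon growth in zebrafish, treated replicates had 671, 601 and 776 and control replicates 1257, 1010.0 and 1260.1 (log2 fold change -0.78 with SE 0.16, adjusted p = 0.00224 in limma). Among delta-2 genes, pcdh18b showed the smallest fall, 1.72-fold by group means.

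The gene pcdh8, known as paraxial protocadherin for its part in cell movements of the early mesoderm, differed widely among treated libraries. It had 261, 36 and 52.5 normalized counts in treated and 1062, 987 and 609 in control replicates (log2 fold change -3.42 with SE 0.63, adjusted p = 0.00118 in limma). Treated replicate 1 held several times the level of the other treated libraries, though still below each control. Without that library the log2 fold change was -4.28, and the level was 20.02-fold lower in treated larvae, against 7.6-fold with it.

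Delta-1 protocadherins have a longer cytoplasmic tail that can bind the phosphatase PP1. The gene pcdh7a, a relative of the NF-protocadherin of frog ectoderm, had 206, 265 and 178 normalized counts in treated and 1871, 1689 and 1706 in control replicates (log2 fold change -3.03 with SE 0.18, adjusted p = 2.34e-06 in limma). Its paralog pcdh7b had 221, 236 and 214 in treated and 428, 447 and 357 in control replicates (log2 fold change -0.87 with SE 0.17, adjusted p = 0.00148 in limma). Every treated library was below every control library for both, by 8.11-fold for pcdh7a and 1.84-fold for pcdh7b.

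Both gene IDs named pcdh11, a protocadherin of the mammalian brain, fell. The ID ENSDARG00000105441 had 98.6, 94.5 and 55.4 normalized counts in treated and 1653, 1560.0 and 1429 in control replicates (log2 fold change -4.25 with SE 0.23, adjusted p = 1.98e-06 in limma). The ID ENSDARG00000098652 had 158, 95.6 and 62 in treated and 249, 324 and 244 in control replicates (log2 fold change -1.45 with SE 0.33, adjusted p = 0.00359 in limma). The first had the lowest log2 fold change of any non-clustered member. Because reads can be divided between IDs that share a symbol, the size of each fall is uncertain.

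The pcdh1 paralogs, related to a protocadherin of human airway epithelium, gave 1 fall and 1 change that did not pass. Normalized counts of pcdh1a were 76.2, 91.1 and 60.1 in treated and 147, 180.0 and 169 in control replicates (log2 fold change -1.13 with SE 0.23, adjusted p = 0.00227 in limma). Those of pcdh1b were 388, 414 and 379 in treated and 456, 466 and 420.0 in control replicates, and the change did not pass (log2 fold change -0.18 with SE 0.15, adjusted p = 0.283 in limma). All treated libraries were below the controls for pcdh1b by a small margin, and its direction was the opposite with upper-quartile scaling (0.0848) and quantile normalization (0.11). The gene pcdh9, known from neurons of the mouse cortex, had 69.5, 112 and 66.8 in treated and 95.2, 113 and 97.3 in control replicates, which overlapped, and did not pass (log2 fold change -0.33 with SE 0.27, adjusted p = 0.293 in limma).

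Paralog pairs born of the teleost genome duplication were compared within each library, as the log2 ratio of one count + 1 to the other. The ratio of pcdh7a to pcdh7b was -0.10, 0.17 and -0.27 in treated and 2.13, 1.92 and 2.25 in control replicates, a difference of -2.16. That of pcdh10a to pcdh10b was 0.25, 0.62 and 0.53 in treated and -0.76, -0.79 and -0.75 in control replicates, a difference of 1.23. In the pcdh7 pair the a gene was lower by more than the b gene, and in the pcdh10 pair the b gene was lower by more. For pcdh18a to pcdh18b the ratio was -1.27, -1.28 and -1.71 in treated and -0.47, -0.29 and -0.44 in control replicates, a difference of -1.02. For pcdh1a to pcdh1b it was -2.33, -2.17 and -2.64 in treated and -1.62, -1.37 and -1.31 in control replicates, a difference of -0.95. The groups did not overlap in any of the 4 pairs. Among all single genes tested, groups did not overlap in 74.1%, and ratios of other gene pairs were not computed. A two-sided exact permutation test over the 6 libraries gave p = 0.1 for each pair, and 0.1 after Benjamini-Hochberg adjustment over the 4 pairs, the smallest value that groups of 3 allow.

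**Figure D5:**
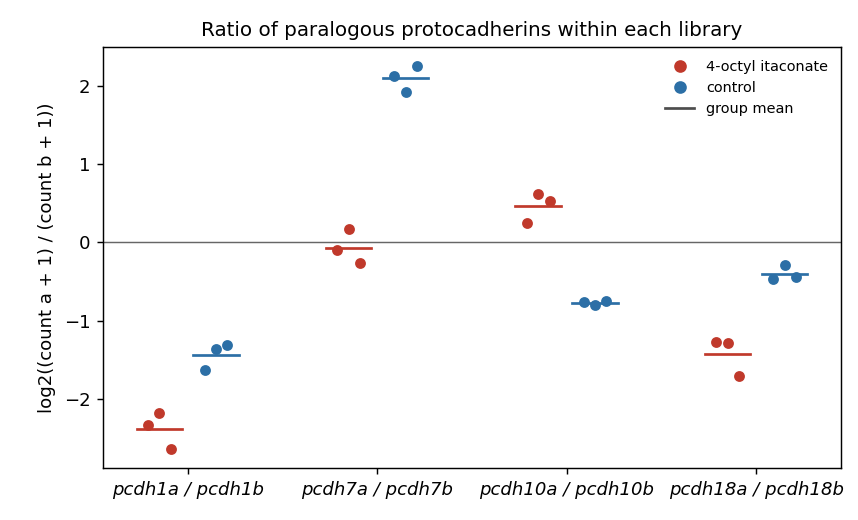
Log2 ratio of normalized count + 1 between 4 pairs of paralogous protocadherins within each library (vertical axis), with 1 point per library and a line at the group mean. The groups do not overlap in any pair, and the 4-octyl itaconate libraries lie higher only for pcdh10a to pcdh10b.

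Both members that rose lie outside the clusters and the delta group. The gene pcdh12 encodes a protocadherin of vascular endothelium in mammals. It had 90.8, 141 and 128 normalized counts in treated and 25.1, 8.89 and 4.23 in control replicates, 9.41-fold higher in treated larvae (log2 fold change 3.43 with SE 0.55, adjusted p = 0.000548 in limma). Every treated library was above every control library, and the control levels rested on few reads. Control replicate 1 was the highest control, and without it the level was 18.3-fold higher in treated larvae. Over all genes tested, 35.0% rose and 34.3% fell. Of 23 endothelial markers tested in the same larvae, 16 rose, 2 fell and 5 did not pass, with a median log2 fold change of 1.21. Their summed level was 6080.2 to 7163 normalized counts in treated and 3472 to 3747 in control libraries, and none was at 0 throughout a group. The endothelial cadherin gene cdh5 had 541 ± 75.2 normalized counts in treated larvae and 793 ± 134 in control larvae (SD, n = 3 each, log2 fold change -0.55, limma adjusted p = 0.0253). The part of endothelial cells in the rise of pcdh12 was not tested.

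The 2 gene IDs named pcdh20 went opposite ways. The ID ENSDARG00000101910, which RefSeq names pcdh20l, had 196, 92.2 and 82.1 normalized counts in treated and 41.1, 67.8 and 49.3 in control replicates and rose (log2 fold change 1.13 with SE 0.37, adjusted p = 0.0228 in limma). The ID ENSDARG00000036424 had 111, 67.5 and 83 in treated and 322, 374 and 229.8 in control replicates and fell (log2 fold change -1.81 with SE 0.26, adjusted p = 0.000295 in limma). Groups did not overlap for either ID, and both were highest in treated replicate 1 among the treated. That rise was not called without control replicate 1 (limma adjusted p = 0.0804), without control replicate 3 (0.0597) or after quantile normalization (0.0621), and without treated replicate 1 its log2 fold change was 0.74 (0.0463), in a range of 0.00733 to 0.0804 over 19 alternatives.

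The gene pcdh15b, the paralog of the hair cell gene pcdh15a that serves zebrafish photoreceptors, had 42.6, 49.5 and 46.8 normalized counts in treated and 70.2, 108 and 40.9 in control replicates. Control libraries spread more widely than treated ones and enclosed them, and the change did not pass (log2 fold change -0.54 with SE 0.37, adjusted p = 0.212 in limma). Without control replicate 3 it was called lower (log2 fold change -0.90, limma adjusted p = 0.0408, the lowest of 19 alternatives, which reached 0.617). Of 28 tested eye markers, 24 fell in the same larvae, against 34.3% of all genes tested, with a median of -2.48. Summed eye markers took 0.371, 0.0921 and 0.146 percent of all normalized counts in treated replicates 1, 2 and 3. In control replicates they took 1.09, 1.41 and 0.859 percent. Treated replicate 1 thus also held the most eye marker RNA among the treated libraries.

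Genes that act with protocadherins were read from lists. In mouse neurons, choice among the clustered promoters depends on the insulator protein CTCF, on cohesin and on DNA methylation. The list of regulator genes covered these and also held hdac1, rest and smchd1. Of its 25 genes 16 fell, 1 rose and 8 did not pass, beside 34.3% of all genes that fell and 35.0% that rose. The median log2 fold change of the list was -0.81. The members with the smallest p all fell, namely the DNA methyltransferase genes dnmt3ab (-2.14) and dnmt3bb.2 (-1.65), the cohesin gene stag1a (-2.02) and the cohesin-bound pds5b (-1.58), in log2 fold changes. The only one that rose was dnmt3bb.1 (1.48, limma adjusted p = 0.00327). The gene ctcf itself, named after its values were seen, averaged 1419.9 ± 139 normalized counts in treated larvae and 3029 ± 55.1 in control larvae (SD, n = 3 each, log2 fold change -1.10, limma adjusted p = 9.45e-05).

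Inside the cell, several delta-2 protocadherins bind the WAVE complex, and clustered protocadherins bind focal adhesion kinases, among other partners. Of 28 such partner genes 11 fell, 7 rose and 10 did not pass, with a median of -0.27, beside the 34.3% of all genes that fell and the 35.0% that rose. The WAVE complex genes cyfip2, the form rich in brain, and cyfip1, the more widely expressed form, moved apart. Levels of cyfip2 were 540.0 ± 119 normalized counts in treated larvae and 6463 ± 399.7 in control larvae (SD, n = 3 each, log2 fold change -3.60, limma adjusted p = 1.57e-06). Levels of cyfip1 were 1522 ± 55.8 normalized counts in treated larvae and 596 ± 15.6 in control larvae (SD, n = 3 each, log2 fold change 1.35, limma adjusted p = 2.29e-05). The kinase genes fyna and taok2a, the other partners with the smallest p, had log2 fold changes of -2.53 and -1.81 and fell (limma adjusted p = 4.35e-06 and 7.21e-06).

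Other cadherins and their catenins moved both ways. Over all genes tested, 34.3% fell and 35.0% rose. Of 22 tested classical cadherin and catenin genes 12 fell, 6 rose and 4 did not pass, with a median of -0.97. By smallest p, the T-cadherin gene cdh13 and the neuronal catenin gene ctnnd2b had log2 fold changes of -2.98 and -2.35 and fell, and the muscle cadherin gene cdh15 and the epithelial catenin gene ctnna1 had 6.36 and 2.60 and rose (limma adjusted p of 3.29e-06 to 1.26e-05). The N-cadherin gene cdh2, whose product pairs with Pcdh19 in zebrafish, had 1686 ± 185 normalized counts in treated larvae and 4081 ± 233 in control larvae (SD, n = 3 each, log2 fold change -1.28, limma adjusted p = 4.87e-05), and it was named after its values were seen. Of 19 tested gene IDs of other large cadherins (Celsr, Fat, Dachsous, calsyntenin and related genes) 14 fell, 2 rose and 3 did not pass, with a median of -1.34. The calsyntenin genes clstn1 and clstn3, 1 of 2 IDs of celsr2 and dchs1b had the smallest p, with log2 fold changes of -2.48, -3.08, -3.06 and -2.66.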

How the data were processed

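Larvae of 2 groups of 3 libraries were profiled by mRNA sequencing. The deposited table holds normalized counts per gene, a signal scaled between libraries. In each library, 100.0% of values came within 0.01 of a whole number of reads once divided by the value of 1 read. Tools named, per the submitters' processing notes, are STAR 2.7.10a, Salmon 1.9.0, DESeq2, fastp 0.23.2 and bcl2fastq 2.20.0.422, with no order given, and the build is GRCz11; the handling of shared reads is not given in the sources used here. Genes averaging 10 or more normalized counts over the 6 libraries (20352 of 24470; 4118 left out) were fitted in limma 3.58.1 (R 4.3.3) on log2(normalized count + 1) with an intensity trend, two-sided, with Benjamini-Hochberg adjustment over all of them. Fold changes on that scale understate the change of low genes. Means are given with the SD of 3 libraries. edgeR 4.0.16 and DESeq2 1.42.0 on recovered reads were alternatives. The limma and edgeR fits were also run on simulated counts in which only a small part of the genes changed. That setting differs from these data, so it does not test the calls made here.

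Named genes were every non-clustered member, in each clustered name family the 4 with the smallest p and the 2 with the highest mean, and up to 4 genes per partner list with the smallest p. Others were named after their values were seen. The members and all lists were chosen with earlier results of these data known. Lists covered cluster regulators, intracellular partners, classical cadherins, other large cadherins and markers of neurons, glia, eye, endothelium, skin, skeletal muscle, liver, pancreas and intestine, blood and hair cells. Gene IDs that share a symbol (8 IDs, 4 symbols) were kept apart. No sequences were used.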

Additional observations from a re-analysis of the deposited data

How the results depend on the processing

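Over alternatives of pseudocount, filter, scaling, limma settings, tool and left-out library, 31 to 33 protocadherins were called lower, against 32. edgeR and DESeq2 called the same 32 lower and 2 higher. Rises numbered 1 after quantile normalization, over all members and over non-clustered members, and with no filter on low values 1 clustered member was called higher. With a library left out, 31 to 33 members fell and 1 to 2 rose, 16 to 17 clustered members fell, and 15 to 16 non-clustered members fell and 1 to 2 rose. Without mitochondrially encoded genes in the total, the control shares were 0.178 percent for clustered and 0.131 percent for non-clustered members, because the total was smaller. The treated shares were then 0.0181 and 0.0221 percent. Clustered members were thus 9.87-fold lower in treated larvae, against 7.81-fold with those genes, and non-clustered members 5.92-fold, against 4.68-fold. Of 604 values of the 32 members named by rule under 19 alternatives, 592 kept their direction and call, 5 gained a call (pcdh1a3 at -3.76 without control replicate 1 among them) and 3 lost one. The gene pcdh1g1, named outside that rule, lost its call in 5 alternatives. The other 4 changed sign, none of them called: pcdh2ab9 (ENSDARG00000089874) at -0.0129 after quantile normalization, pcdh1a3 at 0.58 without control replicate 2, and pcdh1b at 0.0848 with upper-quartile scaling and 0.11 with quantile normalization. The cause was not tested. Upper-quartile scaling put the median of all genes at 0.29, against 0.01. Same-numbered libraries did not deviate together (r of -0.02, -0.06 and 0.05), so no shared effect of a replicate number was visible. That does not exclude a pairing, which the sources used here do not give. A replicate block gave 32 falls and 2 rises, 17 and 0 among clustered and 15 and 2 among non-clustered members. Depth limits the members with low counts, mostly of cluster 2.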

Other observations

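The make-up of the cluster 1 gamma reads differed between the groups. The values are a description with no test, since shares of 1 sum depend on each other, and the choice of genes followed their values. The gene pcdh1g9 took 4.73 ± 1.34 percent of the gamma sum in treated larvae and 11.3 ± 0.125 percent in control larvae (SD, n = 3 each). The gene pcdh1g26 took 10.6 ± 1.66 percent of the gamma sum in treated larvae and 4.67 ± 1.51 percent in control larvae. The gene pcdh1g2, near the alpha genes, took 6.78 ± 1.81 percent of the gamma sum in treated larvae and 1.52 ± 0.495 percent in control larvae. In the low gene pcdh1gb9 the share was 1.99 ± 0.318 percent of the gamma sum in treated larvae and 0.126 ± 0.0566 percent in control larvae. The C-type gene pcdh1gc5 took 13.5 ± 1.93 percent of the gamma sum in treated larvae and 14.9 ± 2.49 percent in control larvae, and pcdh1gc6 took 10.6 ± 3.43 percent of the gamma sum in treated larvae and 14.9 ± 1.33 percent in control larvae. The shares of the groups overlapped for both C-type genes and not for the other 4, which were picked by their values. Among all single genes tested, normalized counts of the groups did not overlap in 74.1%. The count of pcdh1gb9 itself did not pass (adjusted p = 0.383 in limma), while the gamma sum was 11.7-fold lower in treated larvae. No difference between C-type and other gamma genes can be read from this choice.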
